A study of Mus musculus with 6 samples.

Results

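The 10 genes described here encode small leucine-rich proteoglycans (Dcn, Lum, Bgn, Ogn, Prelp and Aspn), the large hyaluronan-binding proteoglycan versican (Vcan), the hyaluronan synthases Has1 and Has2, and the hyaluronan receptor Cd44. They were chosen by gene symbol, and all 10 are among the 18124 genes listed in the deposited count table. Of the 10, 9 passed the filter on low counts and were tested; Lum did not. RNA was sequenced from mouse quadriceps cells sorted as positive for a Col1-GFP reporter and for Sca-1, which the submitters call mesenchymal stem cells (MSCs). The tested cells were kept for 72 hours in medium from senescent macrophages (3 libraries) and the comparison cells for as long in medium from control macrophages (3 libraries).

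All libraries came from Col1-GFP cells at passage 4, isolated from 6 naive male mice whose age the labels do not give. The reporter is driven by a collagen 1 promoter, so it marks collagen-producing cells in general and no single lineage. The macrophages were grown with M-CSF from the bone marrow of wild type mice over 7 days. Senescence was induced in them with 300 µM hydrogen peroxide for 3 hours, repeated after 3 days and followed by 14 days of culture. Medium was conditioned for 48 hours, and the pool of 2 collections was used. Whether control macrophages were cultured for the same time is not given in the labels, so culture time and senescence cannot be told apart. The sources do not say whether the 3 libraries of a medium stem from separate isolates; the p-values then reflect only how far these libraries differ, a spread that may be technical.

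Small leucine-rich proteoglycans are secreted proteins built from leucine-rich repeats. They sit on collagen fibrils, set fibril diameter and spacing, and several bind growth factors such as TGF-beta. Many carry chondroitin, dermatan or keratan sulphate chains. Hyaluronan is a sugar polymer without a protein core, extruded through the plasma membrane by its synthases; versican and its relatives bind to it in the matrix and CD44 binds it at the cell surface. In skeletal muscle these molecules fill the connective tissue around the fibres and are made mainly by its stromal cells.

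Each library held between about 17228200 and 21659400 estimated counts. Levels are given as CPM, counts relative to the TMM-scaled library size. The sorted cell markers Col1a1, Col1a2, Col3a1, Ly6a, Pdgfra, Thy1, Pdpn and Cd34 were all present. Their summed level was 18350 to 18850 CPM in senescent medium and 13700 to 13770 CPM in control medium. Most of that sum was collagen RNA. Col1a1, Col1a2 and Col3a1 averaged 7516, 4139 and 4524 CPM in senescent medium, against 5361, 2856 and 3249 CPM in control medium. Of the 8 markers 5 were higher (these collagen genes, Thy1 and Cd34) and 1 lower (Pdgfra, log2 fold change -0.289). Ly6a, the gene of Sca-1, did not pass (0.034, adjusted p = 0.449, edgeR), nor did Pdpn (-0.031). Of 10 macrophage markers, 6 are not listed in the table, among them Ptprc and Adgre1. The 4 that are sum to 14.97 to 20.1 CPM in senescent and 11.9 to 14.3 CPM in control medium. Among these Lyz2 was higher (log2 fold change 0.802, adjusted p = 1.78e-06, edgeR) and Csf1r lower (-0.528, adjusted p = 0.0248). Cd68 did not pass and Mrc1 was too low to test. Of 7 muscle satellite cell and myoblast markers, 4 are not listed (Pax7, Myf5, Myod1 and Myog), Des was higher, at 5.15 ± 0.772 CPM in senescent and 1.62 ± 0.245 CPM in control medium, Vcam1 was lower, at 242 ± 2.62 and 269 ± 6.96 CPM in senescent and control medium (SD, n = 3 each), and Chrna1 was too low to test. Of 6 adipocyte markers 3 are not listed and 3 were lower, with sums of 3.07 to 4.42 CPM in senescent and 7.55 to 7.82 CPM in control medium. Of 7 endothelial markers 3 are not listed, 1 (Kdr) was higher and 0 lower. The endothelial sums were 26.4 to 33.2 CPM in senescent and 24.2 to 26.6 CPM in control medium. The part of all these cell types in the results was not tested. Of 14644 genes tested, 49.5% passed an adjusted p of 0.05, 24.6% higher and 24.9% lower in senescent medium (edgeR quasi-likelihood test, Benjamini-Hochberg adjustment). Scaling to plain library totals, the calls were 2589 higher and 4813 lower, against 3607 and 3644 with TMM.

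Promoter sequences are shown for 2 pairs of genes that lie in the same gene row and differ in their values, and for 1 hyaluronan synthase. Prelp and Fmod are adjacent on chromosome 1, and Aspn and Ogn belong to a row of leucine-rich proteoglycan genes on chromosome 13. The synthase is Has1. For Prelp, Fmod, Aspn and Has1 the bases just after the start were found in an annotated transcript of the gene. For Ogn they were not, so its start was not matched in this way. Each is the 250 bases before the RefSeq start, 5′ to 3′ on the gene's strand, and capitals mark the motif matches described next.
Prelp: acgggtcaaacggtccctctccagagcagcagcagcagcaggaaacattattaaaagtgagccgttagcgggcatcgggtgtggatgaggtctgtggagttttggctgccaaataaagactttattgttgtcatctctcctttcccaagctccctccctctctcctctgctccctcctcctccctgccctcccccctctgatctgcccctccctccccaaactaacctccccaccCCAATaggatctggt
Fmod: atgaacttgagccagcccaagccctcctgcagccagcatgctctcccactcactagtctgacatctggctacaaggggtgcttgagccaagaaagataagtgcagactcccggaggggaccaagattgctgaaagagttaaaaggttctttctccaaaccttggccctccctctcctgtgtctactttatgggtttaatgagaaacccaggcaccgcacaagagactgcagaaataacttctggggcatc
Aspn: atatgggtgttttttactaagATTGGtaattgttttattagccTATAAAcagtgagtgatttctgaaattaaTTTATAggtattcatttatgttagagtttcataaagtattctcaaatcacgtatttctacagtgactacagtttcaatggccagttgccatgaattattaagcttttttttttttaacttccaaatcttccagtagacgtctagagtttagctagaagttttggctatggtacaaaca
Ogn: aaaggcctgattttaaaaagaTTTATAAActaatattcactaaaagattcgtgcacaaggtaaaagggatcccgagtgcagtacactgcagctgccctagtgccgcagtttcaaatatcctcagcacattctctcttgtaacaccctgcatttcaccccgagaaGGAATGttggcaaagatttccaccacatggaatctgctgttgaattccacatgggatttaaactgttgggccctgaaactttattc
Has1: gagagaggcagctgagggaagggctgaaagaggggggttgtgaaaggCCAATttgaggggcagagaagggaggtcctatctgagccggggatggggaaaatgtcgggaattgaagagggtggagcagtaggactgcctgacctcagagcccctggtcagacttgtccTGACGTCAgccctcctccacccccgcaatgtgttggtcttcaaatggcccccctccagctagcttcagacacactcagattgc

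The windows are chr1:133921402-133921651 (minus strand) for Prelp, chr1:134037004-134037253 (plus) for Fmod, chr13:49544193-49544442 (plus) for Aspn, chr13:49607765-49608014 (plus) for Ogn and chr17:17855189-17855438 (minus) for Has1, all in GRCm38.p6. The promoter table used here, taken from RefSeq, matched 7 of the 10 genes (Aspn, Bgn, Cd44, Has1, Ogn, Prelp and Vcan). Searched on both strands, TATAAA was found in Aspn and Ogn and in 12.4% of the 32851 promoters in the table, and in Ogn its 2 matches overlap. CCAAT was found in Aspn, Has1, Prelp and Vcan and in 33.8% of all promoters. The GC box GGGCGG was found in Bgn and Vcan (32.7% of all), the TEAD motif GGAATG in Ogn (12.6%) and the cAMP response element TGACGTCA in Has1, 83 bases before its start (1.55%). The AP-1 motif TGANTCA (6.75%) and the STAT motif TTCNNNGAA (7.02%) were found in none of the 7 windows, and Fmod held none of the 7 motifs. The motifs were picked after the sequences had been seen, and a match is a description of letters only.

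Per kilobase of annotated exon, Bgn was the most abundant of the 10 genes and Lum the least. Bgn ranged over 899.8 to 1018 CPM per kilobase across the 6 libraries, Prelp over 144 to 237, and Vcan over 66.9 to 79.0. Cd44 followed at 35.5 to 41.4, Has2 at 22.5 to 27.1 and Ogn at 10.0 to 13.2 CPM per kilobase. Aspn (1.98 to 8.12) and Dcn (3.35 to 5.23) overlapped, and they were the only neighbours in this order whose ranges did. Has1 (0.681 to 1.48) and Lum (at most 0.0981) came last. With the length of the longest transcript in place of all exons, Bgn averaged 2180 CPM per kilobase over the 6 libraries, and Dcn (5.32) stood above Aspn (5.13); the other 8 genes kept their places.

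**Figure D1:**
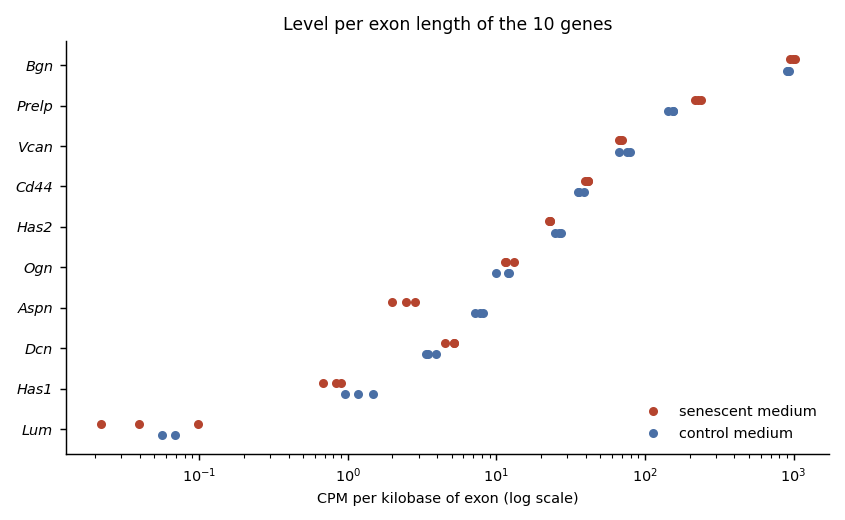
Level of the 10 genes in CPM per kilobase of exon (log scale), 1 point per library, senescent medium in red and above control medium in blue. Bgn lies at 899.8 to 1018 and Has1 at 0.681 to 1.48; the control library in which Lum had no count is not drawn.

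Among the small leucine-rich proteoglycans, Prelp, Dcn and Bgn were higher in senescent medium, Aspn was lower, Ogn did not pass the test and Lum was nearly absent. Over all 10 genes, 7 of the 9 tested passed the threshold (77.8%, where 49.5% of all tested genes did), 4 higher (Prelp, Dcn, Bgn and Cd44) and 3 lower (Aspn, Has1 and Has2). The same 7 genes had libraries that did not overlap between media, which held for 55.8% of all tested genes. The median log2 fold change of the 9 was 0.08, and that of all tested genes was -0.00096. Sizes were mostly modest: Aspn alone passed the threshold with a log2 fold change of 1 or more in size, as did 5.90% of all tested genes. Because the RNA is from bulk cultures, fewer cells of a type and less RNA per cell cannot be told apart.

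**Figure D2:**
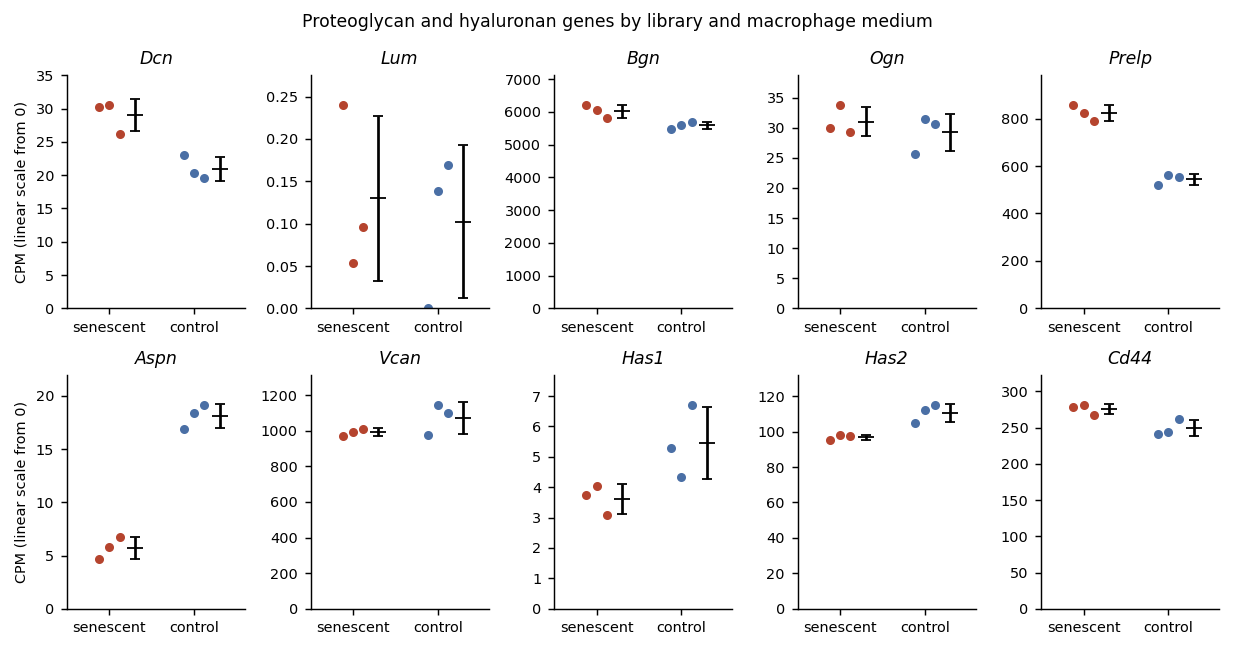
CPM of each gene by library (linear axes from 0, a separate scale for each gene), senescent medium in red on the left and control medium in blue on the right; black marks give the mean and SD of 3 libraries. All 3 senescent-medium libraries lie above the control libraries for Prelp, Dcn, Bgn and Cd44 and below them for Aspn, Has1 and Has2.

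Aspn (ENSMUSG00000021388) encodes asporin, which has an aspartate-rich stretch, binds collagen and can hold back TGF-beta. It had 4.66, 5.81 and 6.73 CPM in senescent medium, against 16.9, 18.4 and 19.1 CPM in control medium. Every senescent-medium library lay below every control library, by a wide margin. Aspn was thus 3.17-fold lower, and its log2 fold change was -1.66 ± 0.115 (adjusted p = 2.15e-13, edgeR; ± is the SE after a log2 fold change and the SD of 3 libraries after a level). It rests on 97 to 140 counts per library in senescent medium and 300 to 399 in control medium. Asporin is also made by tendon and cartilage cells. Of 5 tendon markers 0 were higher and 2 lower, Mkx (log2 fold change -1.11, adjusted p = 2.5e-05, edgeR) and Tnmd (-0.308, adjusted p = 0.0421). Mkx averaged 2.24 CPM in senescent and 4.82 CPM in control medium. The summed level of the 5 was 77.9 to 83.6 CPM in senescent and 85.1 to 92.2 CPM in control medium. Most of that sum was Comp, which did not pass (62.7 and 67.5 CPM in senescent and control medium). Of 7 chondrocyte markers 3 are not listed, 2 were higher and 1 (Sox9) lower, with sums of 83.4 to 87.4 and 91.5 to 97.7 CPM in senescent and control medium. The part of these cells in the Aspn result was not tested.

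Ogn (ENSMUSG00000021390) encodes osteoglycin, also called mimecan, a keratan sulphate-bearing member first linked to bone. It lies in the same row of genes as Aspn, in the order Ecm2, Aspn, Omd and Ogn. Ogn had 30, 33.8 and 29.3 CPM in senescent medium and 25.7, 31.4 and 30.6 CPM in control medium, so the media overlapped. Its log2 fold change was 0.08 ± 0.0753 (adjusted p = 0.399, edgeR), with a 95% interval of -0.074 to 0.235; its sign turned without control replicate 1 (-0.0048) and with library totals (-0.000684). Omd, osteomodulin, averaged 0.418 ± 0.102 CPM in senescent and 0.739 ± 0.609 CPM in control medium (log2 fold change -0.88 ± 0.516, adjusted p = 0.161; 0.073 without control replicate 2 and -1.25, adjusted p = 0.0383, without control replicate 1). Ecm2, a related matrix protein with leucine-rich repeats, averaged 1.12 ± 0.476 and 1.65 ± 0.142 CPM in senescent and control medium (-0.53 ± 0.32, adjusted p = 0.17). The counts of Aspn per count of Ogn were 0.155, 0.172 and 0.23 in senescent-medium libraries, against 0.658, 0.586 and 0.625 in control libraries. That ratio, which does not depend on how libraries are scaled, was lower in each senescent-medium library than in any control library, with a log2 difference of -1.76 (exact two-sided permutation test, p = 0.1, the smallest that 3 against 3 libraries allow).

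Prelp (ENSMUSG00000041577) encodes a proline- and arginine-rich leucine-rich repeat protein that binds collagen and the heparan sulphate chains of basement membranes. It had 857, 823 and 790.1 CPM in senescent medium, against 519, 562 and 555 CPM in control medium. All senescent-medium libraries were above all control libraries, 1.51-fold on average (log2 fold change 0.59 ± 0.0364, adjusted p = 1.65e-14, edgeR). In GENCODE M21, 9.68% of its exon bases are shared with a gene on the opposite strand, Gm15851, and the strand setting of the counting is not given. The gene next to it, Fmod, encodes fibromodulin, which guides collagen crosslinking. Fmod fell, to 178 ± 8.56 CPM in senescent medium against 209.5 ± 4.05 CPM in control medium (log2 fold change -0.23 ± 0.0385, adjusted p = 6.85e-06). Optc, opticin, on the other side of Prelp, was near the limit of detection at 0.998 ± 0.407 and 0.94 ± 0.177 CPM in senescent and control medium (0.11 ± 0.366, adjusted p = 0.831; -0.253 without senescent-medium replicate 1 and -0.0517 without control replicate 2). Prelp counts per Fmod count were 4.56, 4.71 and 4.6 in senescent-medium libraries and 2.44, 2.67 and 2.71 in control libraries. These ratios did not overlap (log2 difference 0.83, exact permutation p = 0.1); the pair was chosen after its values had been seen.

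Dcn (ENSMUSG00000019929) encodes decorin, which coats collagen fibrils and binds TGF-beta. It had 30.2, 30.5 and 26.3 CPM in senescent medium, against 23.0, 20.3 and 19.6 CPM in control medium. The libraries of both media did not overlap, and the log2 fold change was 0.47 ± 0.078 (1.38-fold, adjusted p = 8.78e-06, edgeR). Lum (ENSMUSG00000036446) lies next to it on chromosome 10 and encodes lumican, a keratan sulphate proteoglycan that spaces collagen fibrils. It had 5, 1 and 2 counts in senescent-medium libraries and 0, 3 and 3 counts in control libraries, 14 in all, too few to test; the 0 allows up to 3 counts in that library. Without the filter its log2 fold change was 0.32 ± 1.0 (adjusted p = 0.841). Kera and Epyc, the next genes in that row, are not listed in the table.

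Bgn (ENSMUSG00000031375) encodes biglycan, the closest relative of decorin, which also signals to immune receptors when released from the matrix. It had 6209, 6045 and 5814 CPM in senescent medium, against 5488, 5606 and 5703 CPM in control medium. The media did not overlap, but the gap between the nearest libraries was small. The log2 fold change was 0.11 ± 0.0335 (adjusted p = 0.00991, edgeR). The call was lost with library totals (log2 fold change 0.0235, adjusted p = 0.566) and without senescent-medium replicate 1 (0.0838, adjusted p = 0.0681); over all alternatives the adjusted p ran from 0.00169 to 0.566. Bgn counts per Dcn count were 206, 198 and 222 in senescent-medium libraries and 239, 276 and 291 in control libraries, without overlap (log2 difference -0.36, exact permutation p = 0.1). Bgn RNA was therefore lower relative to Dcn RNA in each senescent-medium library than in any control library, though Bgn itself was called higher. Summed over the 6 genes Dcn, Lum, Bgn, Ogn, Prelp and Aspn, the level was 6912 ± 233 CPM in senescent medium and 6212 ± 129 CPM in control medium (log2 difference 0.15, exact permutation p = 0.1; 0.0721 with library totals). Bgn made up 87.1% to 87.2% of those counts in senescent-medium libraries and 89.9% to 90.4% in control libraries.

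Of the 11 other small leucine-rich proteoglycan genes, 7 were tested: 2 rose, 2 fell and 3 did not pass the threshold, with a median log2 fold change of -0.23. Among all tested genes 24.6% rose and 24.9% fell. Podn, which encodes podocan, had 15.2, 16.6 and 13.5 CPM in senescent medium, against 5.24, 3.51 and 5.62 CPM in control medium. The increase, 1.67 ± 0.137 on the log2 scale (adjusted p = 6.73e-11, edgeR), was close in size to that of Aspn, with the opposite sign. Its closest relative by name, Podnl1, podocan-like 1, had 2.45, 2.13 and 1.59 CPM in senescent medium, against 6.03, 4.89 and 4.56 CPM in control medium (-1.32 ± 0.197, adjusted p = 1.36e-06). Podn counts per Podnl1 count lay at 6.22 to 8.49 in senescent medium and 0.717 to 1.24 in control medium, a log2 difference of 3.02 (exact permutation p = 0.1; a pair chosen after its values had been seen). Tsku, which encodes tsukushi, a secreted modulator of Wnt and BMP signals, averaged 104 ± 6.62 and 83.6 ± 2.07 CPM in senescent and control medium (0.31 ± 0.0469, adjusted p = 1.9e-06). Kera, Epyc and Chad are not listed, and Nyx was too low to test.

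**Figure D3:**
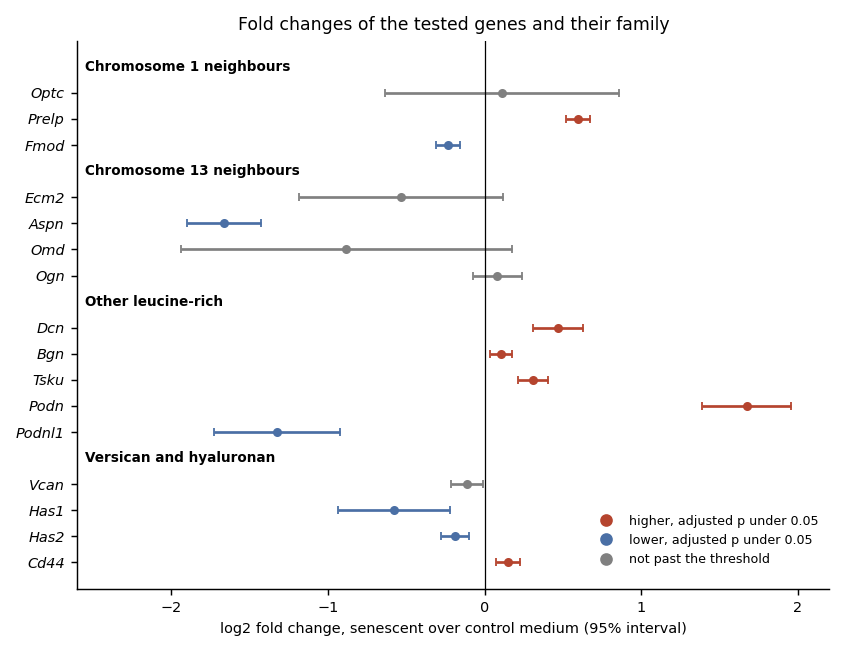
Log2 fold change, senescent over control medium, with 95% intervals from edgeR, for the tested genes of the set and their tested leucine-rich relatives; red is higher and blue lower at an adjusted p of 0.05, grey did not pass. Prelp lies at 0.59 beside its neighbour Fmod at -0.23, and Aspn lies at -1.66 in the row that also holds Ogn, whose interval spans 0.

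**Figure D4:**
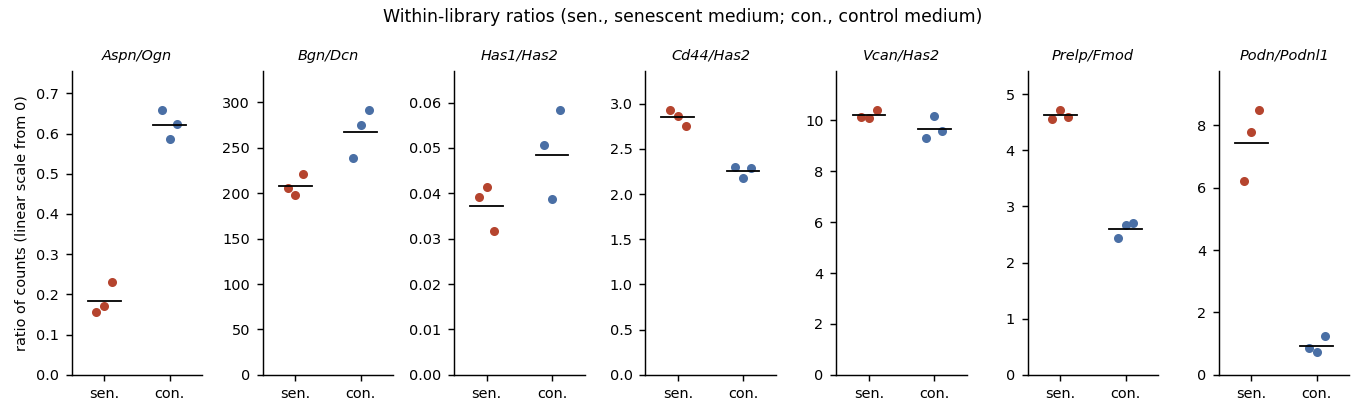
Ratio of counts of 2 genes within each library (linear axes from 0), senescent medium in red on the left and control medium in blue on the right, with the geometric mean as a line. The ratio Aspn/Ogn lies at 0.155 to 0.23 in senescent medium and 0.586 to 0.658 in control medium, without overlap, while Has1/Has2 and Vcan/Has2 overlap.

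The genes that make hyaluronan were lower in senescent medium, both Has1 and Has2 by modest amounts. Has2 (ENSMUSG00000022367), whose product is the main synthase of mesenchymal cells, had 95.3, 98.0 and 97.3 CPM in senescent medium, against 105, 112 and 115 CPM in control medium. The media did not overlap, and the log2 fold change was -0.19 ± 0.0432 (adjusted p = 0.000467, edgeR). Has1 (ENSMUSG00000003665), a second synthase, had 3.74, 4.05 and 3.08 CPM in senescent medium, against 5.30, 4.34 and 6.69 CPM in control medium. The decrease, -0.58 ± 0.175 on the log2 scale (adjusted p = 0.0068), rests on 64 to 119 counts per library and on control replicate 3, the highest: without it the value was -0.408 (adjusted p = 0.0838; 0.00227 to 0.0838 over all alternatives). Counts of Has1 per count of Has2 overlapped between media (0.0316 to 0.0413 in senescent and 0.0387 to 0.0583 in control medium; exact permutation p = 0.3). Has3 averaged 0.459 ± 0.299 and 0.664 ± 0.239 CPM in senescent and control medium (-0.58 ± 0.489, adjusted p = 0.341).

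Genes for the sugar precursors of hyaluronan moved in both directions. Of 8 genes in that list (Has3 among them) 4 rose, 2 fell and 2 did not pass, with a median log2 fold change of 0.07. The shares over all tested genes were 24.6% higher and 24.9% lower. With library totals, or without senescent-medium replicate 2, 2 of the list rose. Ugdh, the enzyme that makes UDP-glucuronic acid, averaged 428 ± 18.3 CPM in senescent medium and 354 ± 5.34 CPM in control medium (0.28 ± 0.0352, adjusted p = 9.75e-08, edgeR). The paired isoenzymes of the first hexosamine step parted: Gfpt1 was higher (0.20 ± 0.0391, adjusted p = 8.26e-05) and Gfpt2 lower, at 56.1 ± 3.12 CPM in senescent and 85.8 ± 0.433 CPM in control medium (-0.61 ± 0.0486, adjusted p = 4.66e-12). Uap1, which makes the UDP-N-acetylglucosamine that the synthases use, fell to 71.3 ± 3.83 CPM in senescent medium, against 103 ± 3.75 CPM in control medium (-0.53 ± 0.0469, adjusted p = 5.46e-11). Gnpnat1 (0.23 ± 0.0725) and Pgm3 (0.17 ± 0.0636), enzymes between these steps, rose, but both share exon bases with a gene on the opposite strand (81.9% with Styx and 28.3% with Dop1a). With library totals Gnpnat1 had an adjusted p of 0.0867 and Pgm3 of 0.25. Without senescent-medium replicate 2 they had log2 fold changes of 0.197 and 0.16 (adjusted p = 0.0542 and 0.0776); Pgm3 also missed the threshold with DESeq2 (0.173, adjusted p = 0.0696) and without senescent-medium replicate 3 (0.163) or control replicate 3 (0.115).

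Cd44 (ENSMUSG00000005087), the main cell surface receptor for hyaluronan, had 279, 281 and 268 CPM in senescent medium, against 241, 245 and 262 CPM in control medium. The libraries did not overlap, and the log2 fold change was 0.15 ± 0.037 (adjusted p = 0.00133, edgeR). With library totals the value was 0.066 (adjusted p = 0.138; 0.00034 to 0.138 over all alternatives). Counts of Cd44 per count of Has2 were 2.93, 2.87 and 2.75 in senescent-medium libraries and 2.3, 2.18 and 2.28 in control libraries, a log2 difference of 0.34 without overlap (exact permutation p = 0.1). Cd44 RNA was thus higher relative to Has2 RNA in every senescent-medium library than in any control library. The table gives counts per gene, so splice forms of Cd44 were not analysed here.

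Of 14 other hyaluronan receptors and binding proteins 7 were tested: 2 rose, 1 fell and 4 did not pass, with a median log2 fold change of 0.13. Of all tested genes 24.6% rose and 24.9% fell. Itih1, Itih3, Itih4 and Habp2 are not listed. Hmmr, a hyaluronan-binding protein that also works at the mitotic spindle of dividing cells, fell to 12.96 ± 0.568 CPM in senescent medium, against 38.3 ± 1.99 CPM in control medium (-1.56 ± 0.0746, adjusted p = 2.41e-17, edgeR). Habp4, an intracellular binding protein, averaged 32.9 ± 0.194 and 24.9 ± 0.722 CPM in senescent and control medium (0.40 ± 0.0652, adjusted p = 6.41e-06). Layn, layilin, rose by 0.13 ± 0.0481 on the log2 scale (adjusted p = 0.0209). Its call was lost with library totals (log2 fold change 0.0532), with DESeq2 (0.135), without senescent-medium replicate 1 (0.0997) and without control replicate 1 (0.118) or 3 (0.132); each of these leaves 1 rise in the list. Ptx3 and Tnfaip6, which help to crosslink hyaluronan in inflamed matrix, had log2 fold changes of 0.07 ± 0.0336 and -0.36 ± 0.21 (adjusted p = 0.0963 and 0.159); the value of Ptx3 was -0.0136 with library totals, and with upper-quartile scaling it passed as higher (0.0875, adjusted p = 0.0285), which made 3 rises in the list.

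Genes for hyaluronan breakdown also parted. Cemip, a secreted protein needed for hyaluronan depolymerisation by fibroblasts, had 509.6, 519 and 523 CPM in senescent medium, against 404, 418 and 419 CPM in control medium (0.32 ± 0.033, adjusted p = 1.18e-09, edgeR). Hyal2, a membrane-anchored hyaluronidase, had 42.2, 38.3 and 43.5 CPM in senescent medium, against 61.6, 52.4 and 57.0 CPM in control medium (-0.46 ± 0.0615, adjusted p = 3.26e-07). Both differences held without overlap between libraries. Hyal1 (0.17 ± 0.0834, adjusted p = 0.103) and Cemip2 (-0.09 ± 0.0538, adjusted p = 0.161) did not pass, though Cemip2 passed with library totals, which gave 2 lower genes in the list. In Hyal1, 50.8% of exon bases are shared with Naa80 on the same strand. Tmem2, an older name of Cemip2, is not listed, and Hyal3 was too low to test.

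Vcan (ENSMUSG00000021614) encodes versican, a large chondroitin sulphate proteoglycan that binds hyaluronan at one end and lectin ligands at the other. It had 968, 990.4 and 1012 CPM in senescent medium, against 973, 1142 and 1098 CPM in control medium. Control replicate 1 lay among the senescent-medium libraries, so the media overlapped. The log2 fold change was -0.11 ± 0.0479 (adjusted p = 0.063, edgeR; 95% interval -0.217 to -0.011). Without control replicate 1 it was -0.181 (adjusted p = 4.03e-06), with library totals -0.195 (adjusted p = 0.0064), with limma-voom -0.113 (0.0324) and without robust estimation -0.114 (0.0378); over all alternatives the adjusted p ran up to 0.245. Counts of Vcan per count of Has2 overlapped between media (10.1 to 10.4 in senescent and 9.3 to 10.2 in control medium; exact permutation p = 0.3). Of the other lecticans and the link proteins that tie them to hyaluronan, Acan, Ncan, Hapln1 and Hapln2 are not listed. Bcan and Hapln3 were too low to test. Hapln4 was lower at 0.902 ± 0.229 CPM in senescent medium and 1.83 ± 0.184 CPM in control medium (-1.002 ± 0.309, adjusted p = 0.0078, edgeR). Its value rests on only 12 to 22 counts per library in senescent medium and 32 to 36 in control medium.

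Of 9 tested genes whose products cut versican or bind it, 6 rose, 2 fell and 1 did not pass, where 24.6% of all tested genes rose and 24.9% fell. The median log2 fold change of the 9 was 0.40, and Adamts20 is not listed. Adamts5, an aggrecanase that also cleaves versican, had 1403, 1451 and 1459 CPM in senescent medium, against 726, 815 and 798 CPM in control medium (0.88 ± 0.0373, adjusted p = 1.22e-17, edgeR). Fbln2, fibulin 2, which binds versican's lectin domain, averaged 6349 ± 128 and 4209 ± 75.1 CPM in senescent and control medium (0.59 ± 0.0325, adjusted p = 7.44e-16). Fbn1 (0.45 ± 0.0415), Tnc (0.40 ± 0.0371), Adamts15 (0.84 ± 0.244) and Adamts1 (0.16 ± 0.0365) rose as well, Adamts1 not with library totals (0.0839, adjusted p = 0.0587). Fbln1 (-0.45 ± 0.0427) and Adamts9 (-0.41 ± 0.0713) fell, and Adamts4 did not pass (-0.04 ± 0.0754, adjusted p = 0.666). In Fbn1, 20.1% of exon bases overlap Gm9913 on the opposite strand.

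Genes that build the chondroitin and dermatan sulphate chains carried by Dcn, Bgn and Vcan fell more often than they rose. Of 24 tested 11 fell, 6 rose and 7 did not pass, with a median log2 fold change of -0.13, where 24.9% of all tested genes fell and 24.6% rose; Chst3 is not listed. Chsy1, a chain polymerase, had 76.8, 80.4 and 86.0 CPM in senescent medium, against 107, 120 and 114 CPM in control medium (-0.49 ± 0.0484, adjusted p = 1.2e-09, edgeR). The chain-starting enzymes Csgalnact1 (-0.25 ± 0.0336) and Csgalnact2 (-0.42 ± 0.052), the epimerase Dse that turns chondroitin into dermatan sulphate (-0.30 ± 0.0392), and the sulphotransferases Chst11 (-0.18 ± 0.0492), Chst12 (-0.30 ± 0.0435) and Chst15 (-0.80 ± 0.118) fell too. Among enzymes of the linkage to the core protein the direction was split. Xylt1 (-0.57 ± 0.101), B3galt6 (-0.65 ± 0.0919) and the xylose kinase gene Fam20b (-0.24 ± 0.0458) fell, while Xylt2 (0.16 ± 0.0612), B4galt7 (0.31 ± 0.0596) and B3gat3 (0.58 ± 0.0852) rose. Papss2, which makes the sulphate donor, had 42.6, 43.0 and 42.4 CPM in senescent medium, against 26.8, 30.7 and 26.1 CPM in control medium (0.61 ± 0.0651, adjusted p = 2.82e-09, edgeR). Papss1, which makes the same donor, averaged 62.7 ± 3.57 and 62.0 ± 1.14 CPM in senescent and control medium and did not pass (0.015 ± 0.0509, adjusted p = 0.83). Chpf (0.18 ± 0.0335) and Chst7 (0.40 ± 0.135) were the other rises and Chpf2 (-0.20 ± 0.0356) the other fall. Without single libraries 4 to 6 of the list rose and 11 fell. Xylt2 missed the threshold with library totals (log2 fold change 0.0808) and DESeq2 (0.163), without senescent-medium replicate 2 (0.143) or 3 (0.146) and without control replicate 1 (0.153) or 3 (0.134), Chst7 without control replicate 1 (0.336). Exons of Chpf2 (44.1% of bases, Smarcd3) and Chst15 (17.9%, Gm10584) overlap a gene on the opposite strand.

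Of 7 keratan sulphate genes 5 were tested, and 2 rose, 2 fell and 1 did not pass (median log2 fold change -0.06). Over all tested genes 24.6% rose and 24.9% fell. The sulphotransferase genes Chst1 (15.1 ± 0.879 CPM in senescent and 24.7 ± 1.52 CPM in control medium; -0.71 ± 0.0816, adjusted p = 1.46e-08, edgeR) and Chst2 (-0.34 ± 0.0565) were lower. The chain-extending enzyme genes B4galt4 (0.50 ± 0.107) and B3gnt2 (0.59 ± 0.115) were higher, but 58.6% of the exon bases of B3gnt2 are shared with Gm28048 on the same strand. B4galt1 did not pass (-0.06 ± 0.0336, adjusted p = 0.131), but with library totals it passed as lower (-0.143, adjusted p = 0.000585), which made 3 falls in the list.

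**Figure D5:**
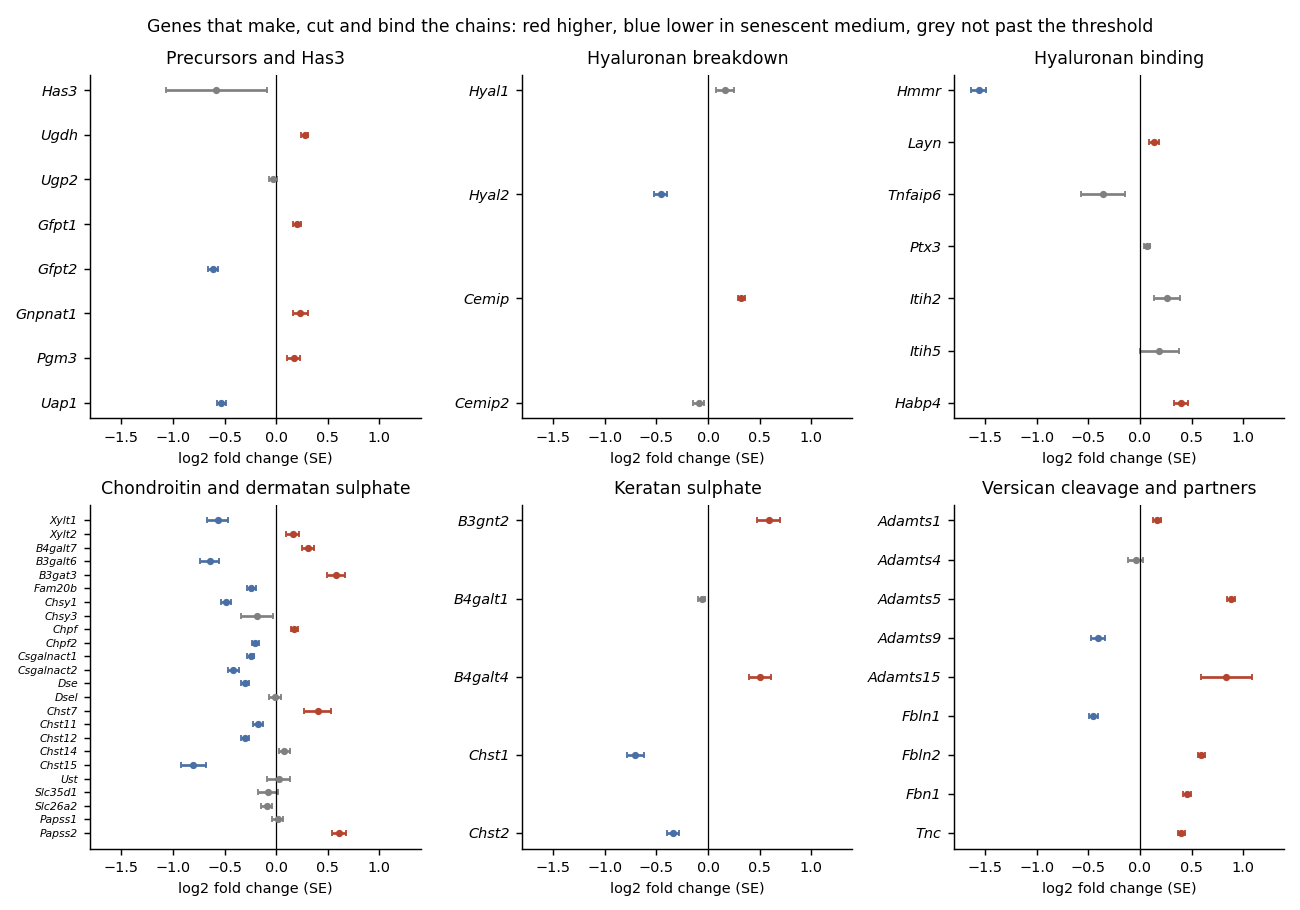
Log2 fold change, senescent over control medium, with its SE for every tested gene of 6 lists; red is higher and blue lower at an adjusted p of 0.05, grey did not pass. In the chondroitin and dermatan sulphate panel 11 genes lie below 0 in blue and 6 above 0 in red, and in the versican panel Adamts5 lies at 0.88.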

How the data were processed

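RNA of 6 libraries was read from both fragment ends over 150 bp, per the labels' protocols. The authors deposited estimated counts per Ensembl gene, not normalized and not always whole; STAR, DESeq2 and mm39 are named with no role per the submitters' processing notes, and how reads were assigned to genes, with which annotation and whether by strand, is not given in the sources used here. Every listed gene has at least 10 counts over the 6 libraries. Groups came from sample titles. Symbols came from GENCODE M21 (GRCm38), found for 18092 of 18124 genes; exon lengths and overlaps came from the same annotation, and promoters and gene order from RefSeq (GRCm38.p6).

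Counts were rounded and tested with edgeR 4.0.16 in R 4.3.3 (quasi-likelihood F-test, robust, TMM, edgeR's expression filter, two-sided, Benjamini-Hochberg over 14644 genes, threshold 0.05), after a run on simulated counts. Each SE was taken as the size of the log2 value over the root of its F statistic. CPM uses TMM-adjusted library sizes. Pairs of libraries of 1 medium differed by 2.70 to 8.46 times the chi-square expected from counting alone, so none were merged. Senescent-medium replicate 3 lay farthest from the others of its medium (8.46 and 7.04), and the remaining pairs reached at most 4.47. Ratios and sums were compared with exact permutation tests over 20 arrangements; of 7 planned pairs, 2 with Lum gave no value because a library had 0 counts, and the other 5 have Benjamini-Hochberg adjusted p-values of 0.167 (3 pairs) or 0.3 (2 pairs). Alternatives were DESeq2 1.42.0, limma-voom (limma 3.58.1), other scalings and filters, a replicate block and each library left out. Gene names follow a rule: the 10 genes, the others of their gene rows, and per list the 2 genes with the smallest adjusted p and every called gene with a log2 fold change of 1 or more in size; further genes were named after their values were seen, and no genes of like pattern are reported. The members and lists were chosen with earlier results of these data known, so no list was tested and no p was adjusted over a list.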

Additional observations from a re-analysis of the deposited data

How the results depend on the processing

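No pairing by replicate number was seen: deviations from the group means correlated at 0.03, -0.01 and 0.02 between same-numbered libraries. With 3 libraries per medium and counting error in the deviations, these values cannot exclude a pairing. With the replicate block 7402 genes passed and Vcan did too (-0.111, adjusted p = 0.00382), and no call among the other tested genes of the set changed. Of 153 recomputed fold changes of the 9 tested genes, 142 kept direction and side of the threshold; Prelp (0.513 to 0.625), Dcn (0.386 to 0.537), Aspn (-1.8 to -1.53) and Has2 (-0.272 to -0.165) did so under every alternative run. With library totals Bgn (0.0235) and Cd44 (0.066) lost their calls, Vcan passed (-0.195), Ogn turned (-0.000684), as did Ptx3 (-0.0136), 2 of the 9 were higher, and called genes were 2 higher for precursors, 1 higher for hyaluronan binding, 2 lower for hyaluronan breakdown and 4 higher for cell surface proteoglycans. With DESeq2, 1 hyaluronan-binding gene was higher. Vcan passed with limma-voom (-0.113) and without robust estimation (-0.114). With 1 library left out in turn, Bgn ran from 0.0838 to 0.131, Vcan from -0.181 to -0.0659, Has1 from -0.729 to -0.408 and Ogn from -0.00479 to 0.138; precursor genes called higher numbered 2 to 4, and hyaluronan-binding genes 1 to 2. Optc (-0.253 to 0.336) turned without senescent-medium replicate 1 (-0.253) or control replicate 2 (-0.0517), and Omd (-1.25 to 0.073) without control replicate 2. Library totals lowered the median log2 fold change of all tested genes as well, to -0.0818 from -0.00096 with TMM. The cause of the shifts under the other alternatives was not tested. Depth limits Lum, Has1, Has3, Omd, Ecm2, Optc and Hapln4, where counting error is large.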

Other observations

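Of 10 tested genes for proteoglycans held at the cell surface, most of them carriers of heparan sulphate, 7 rose in senescent medium, 2 fell and 1 did not pass, where 24.6% of all tested genes rose and 24.9% fell. Their median log2 fold change was 0.21. With library totals 4 rose, as Gpc1, Gpc2 and Gpc6 lost their calls, and Sdc1 passed as lower (-0.11, adjusted p = 0.00778). Gpc2 and Gpc6 also missed the threshold with DESeq2 (0.304 and 0.0973, adjusted p = 0.119 and 0.0789) and without senescent-medium replicate 2 or 3 or control replicate 1 or 3. Gpc6 further missed it with limma-voom or without robust estimation, and Gpc2 without senescent-medium replicate 1 or control replicate 2. In Gpc2, 55.6% of exon bases are shared with Gm43720 on the same strand, and in Gpc1 18.9% with Ankmy1 on the opposite strand. Sdc3, syndecan 3, had 411, 402 and 407 CPM in senescent medium, against 258, 268 and 273 CPM in control medium (0.61 ± 0.0341, adjusted p = 1.13e-15, edgeR). Sdc2, syndecan 2, averaged 244 ± 1.14 and 187 ± 5.31 CPM in senescent and control medium (0.38 ± 0.0356, adjusted p = 1.77e-10), and Gpc4, glypican 4, 349 ± 18.5 and 256 ± 9.92 CPM (0.45 ± 0.039). Cspg4, the chondroitin sulphate proteoglycan NG2 of pericytes and stromal cells, averaged 21.3 ± 2.42 CPM in senescent medium and 10.8 ± 2.38 CPM in control medium (0.97 ± 0.137, adjusted p = 5.6e-05). The fallen genes were Sdc4 (-0.22 ± 0.0389) and Tgfbr3, betaglycan, a co-receptor for TGF-beta (-0.21 ± 0.034). Of 7 pericyte and smooth muscle markers 1 was higher, Cspg4 itself. The 2 lower were Myh11 (-0.998, adjusted p = 3.73e-09, edgeR) and Mcam (-0.979, adjusted p = 2.81e-05). The summed level was 106 to 121 CPM in senescent and 107 to 118 CPM in control medium. Most of that sum was Notch3, which did not pass (78.6 and 78.8 CPM in senescent and control medium). The part of such cells in these values was not tested.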
